A study of Cricetulus griseus with 24 samples.

Results

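The genes described here are 8 genes of polyamine metabolism, taken from a list of names: Odc1, Azin1, Oaz1, Oaz2, Amd1, Srm, Sms and Sat1. Of these, 7 had a row among the 26776 gene names of each count table, 6 under their symbol and Oaz2 under a gene identifier that the RefSeq gene table pairs with that symbol, and all 7 passed the filter on low counts in both experiments. Oaz1 was not analysed here. The counted exons summed to between 516 bases for Sat1 and 3884 bases for Azin1, and none overlapped an exon of another gene in the tables.

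Polyamines (putrescine, spermidine and spermine) are small positively charged metabolites that bind nucleic acids and are needed for cell growth and translation. Ornithine decarboxylase makes putrescine, and the spermidine and spermine synthases lengthen it with aminopropyl groups that come from decarboxylated S-adenosylmethionine. Antizymes bind ornithine decarboxylase and send it to the proteasome, antizyme inhibitor frees it again, and an acetyltransferase marks spermidine and spermine for oxidation or export. In mouse and human macrophages, arginine taken from digested corpses is known to feed putrescine synthesis.

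RNA was measured by paired-end sequencing in 24 libraries of LR73 cells, a Chinese hamster line used as phagocytes and labelled as fibroblasts. Apoptotic cells were Jurkat cells, a human T lymphoma line, given ultraviolet C light at 1500 mJ and cultured for 4 h. In the first experiment, with 4 libraries a group, phagocytes received apoptotic cells with cytochalasin D, apoptotic cells, cytochalasin D, or neither (control). Cytochalasin D caps growing actin filaments and blocks engulfment. In the second experiment, Slc12a2-deficient and wildtype phagocytes met apoptotic cells for 2 h and were then sorted for CypHer5E, a dye that lights up in acidic compartments and so marks engulfed targets, with 4 libraries a genotype. The product of Slc12a2, NKCC1, carries sodium, potassium and chloride into cells. Both groups of the second experiment therefore had apoptotic cells and were gated on uptake. The sources used here do not give how Slc12a2 was removed, whether the deficient cells were a clone, or how long the first experiment's cells were cultured together. The 4 libraries of a group are called biological replicates by the study.

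Depth was 8272232 to 18911353 counted fragments per library in the first experiment and 22758587 to 28450594 in the second, so that each of the 7 genes had at least 392 fragments in every library. Slc12a2 averaged 24.67 ± 1.59 CPM in Slc12a2-deficient and 96.8 ± 5.41 CPM in wildtype libraries (SD, n = 4 each). Of the fibroblast markers, Col1a1, Col1a2 and Thy1 were under 0.5 CPM in all 6 groups, whereas Vim and Fn1 were high. T cell markers, which would mark RNA of the Jurkat targets, summed over 16 genes to 41.8 to 46.4 CPM with apoptotic cells and cytochalasin D, 42.6 to 45.9 CPM with apoptotic cells, 30.8 to 37.1 CPM with cytochalasin D and 34.8 to 37.2 CPM in control, and Lck averaged 3.07 CPM with apoptotic cells and cytochalasin D, 3.20 CPM with apoptotic cells, 0 with cytochalasin D and 0.0259 CPM in control. The T cell markers Cd3g, Cd2 and Cd5 had no count in any of these groups. Tcf7 averaged 23.7 CPM and Lat 11 CPM in control, which had no apoptotic cells, so the sums are not a measure of target RNA alone. The part of target RNA in the counts of the polyamine genes was not tested. In the first experiment, control replicate 4, cytochalasin D replicate 1 and replicate 4 of apoptotic cells with cytochalasin D stood apart on the third principal component, and results that change without them are given with and without them.

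Levels are in CPM, that is fragment counts scaled to library size with TMM factors, and a gene is called changed where edgeR's quasi-likelihood test gave a Benjamini-Hochberg adjusted p under 0.05 over all genes of that experiment. In RNA from whole cultures, fewer cells that express a gene and less RNA per cell cannot be told apart. The comparisons of the first experiment share libraries, so their results are not independent of each other.

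With apoptotic cells, Amd1, the S-adenosylmethionine decarboxylase that supplies the aminopropyl groups, fell and Odc1, the ornithine decarboxylase that opens the pathway, rose. Amd1 was 1.82-fold lower, Odc1 was 1.22-fold higher and Azin1, the antizyme inhibitor, was 1.17-fold lower with apoptotic cells than in control. The other 4 genes did not pass the test. Thus 3 of 7 were called, 1 higher and 2 lower, where 13.7% of the 13106 genes tested were called, 6.97% higher and 6.68% lower. The median absolute log2 change was 0.19 over the 7 genes and 0.12 over all genes.

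Odc1 stood at 191.6, 182.5, 190.2 and 181.6 CPM in the 4 libraries with apoptotic cells, against 149.3, 151.9, 156.8 and 154.4 CPM in control libraries. Every library with apoptotic cells lay above every control library. The mean was 186.5 ± 5.15 CPM with apoptotic cells and 153.1 ± 3.23 CPM in control (SD, n = 4 each), a log2 fold change of 0.28 (SE 0.04, edgeR adjusted p = 0.000115). Azin1, an inactive relative of ornithine decarboxylase that binds antizyme in its place, had 222.9, 238.8, 214.9 and 233.3 CPM with apoptotic cells, against 283.7, 241.7, 272.6 and 269.2 CPM in control. The groups did not overlap, but the second control library came within a few CPM of the highest library with apoptotic cells. The log2 change came to -0.23 (SE 0.06, edgeR adjusted p = 0.0133). This call was lost without control replicate 1 (edgeR adjusted p = 0.0526) or without replicate 3 of apoptotic cells (edgeR adjusted p = 0.0539).

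Amd1 had 94.8, 101.4, 84.3 and 105.0 CPM with apoptotic cells, against 181.4, 163.0, 170.8 and 186.2 CPM in control. All libraries with apoptotic cells were far below the lowest control library. The mean was 96.37 ± 9.1 CPM with apoptotic cells and 175.4 ± 10.4 CPM in control (SD, n = 4 each), and the log2 change came to -0.86 (SE 0.07, edgeR adjusted p = 2.92e-08). By absolute log2 change, Amd1 stood above 97.2% of the genes tested. With each library left out in turn, its log2 fold change stayed between -0.91 and -0.80. Log2 fold changes in this comparison fell with gene length across genes (Spearman's rho -0.256), and with that trend removed, a setting chosen after seeing the data, Amd1 stood at -0.85 (edgeR adjusted p = 1.3e-08) and Azin1 at -0.19 (edgeR adjusted p = 0.0244).

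The remaining genes of synthesis and breakdown were not called with apoptotic cells. Srm, the spermidine synthase, averaged 169.6 ± 8.17 CPM with apoptotic cells and 160.3 ± 11.4 CPM in control (log2 fold change 0.08, SE 0.05, edgeR adjusted p = 0.301). Sms, the spermine synthase, averaged 119.5 ± 2.58 CPM with apoptotic cells and 116.6 ± 2.84 CPM in control (log2 fold change 0.03, SE 0.04, edgeR adjusted p = 0.623). Antizyme 2, encoded by Oaz2, averaged 123.4 ± 7.15 CPM with apoptotic cells and 118.6 ± 3.53 CPM in control (log2 fold change 0.06, SE 0.05, edgeR adjusted p = 0.431). Values of these 3 genes overlapped between the groups. Sat1, the spermidine and spermine acetyltransferase, had 40.0, 41.0, 37.3 and 39.6 CPM with apoptotic cells, against 34.6, 37.0, 31.2 and 35.3 CPM in control. Its libraries did not overlap, yet its log2 fold change of 0.19 (SE 0.07) missed the threshold (edgeR adjusted p = 0.0738). Under 8 other settings that left out no single library it lay between 0.09 and 0.20, with edgeR or DESeq2 adjusted p from 0.0691 to 0.499.

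**Figure D1:**
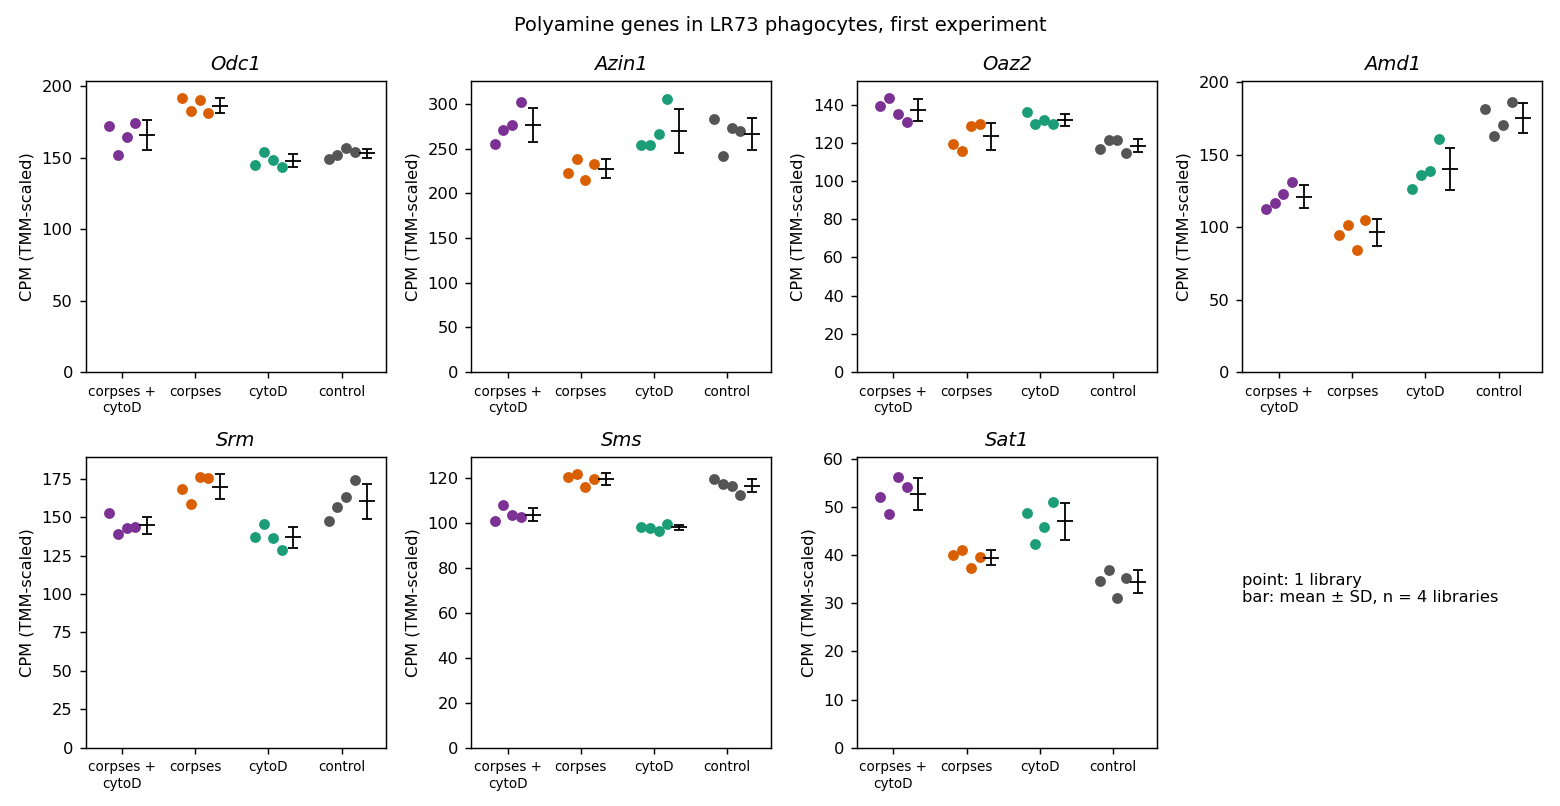
TMM-scaled CPM of the 7 genes in each library of the first experiment, with the mean ± SD of 4 libraries at the right of each group; corpses are apoptotic cells and cytoD is cytochalasin D. Amd1 is lowest with apoptotic cells (84.3 to 105.0 CPM) and highest in control (163.0 to 186.2 CPM), while Sat1 is higher and Sms lower in both groups given cytochalasin D.

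With cytochalasin D by itself, the acetyltransferase gene rose, and Amd1 and both synthase genes fell. Sat1 was 1.36-fold higher with cytochalasin D than in control, and Oaz2 was 1.11-fold higher, whereas Amd1, Sms and Srm were 1.25-, 1.19- and 1.17-fold lower. Odc1 and Azin1 did not pass the test. The count of 5 of 7, 2 higher and 3 lower, compares with 26.3% of all genes tested, 13.5% higher and 12.8% lower.

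Sat1 had 48.8, 42.3, 46.0 and 51.1 CPM with cytochalasin D, against 34.6, 37.0, 31.2 and 35.3 CPM in control. Every library with cytochalasin D exceeded every control library, and the log2 change came to 0.45 (SE 0.07, edgeR adjusted p = 3.3e-05). Sms had 98.3, 97.9, 96.4 and 99.6 CPM with cytochalasin D, against 119.5, 117.4, 116.7 and 112.7 CPM in control. These groups lay well apart, with a log2 fold change of -0.25 (SE 0.04, edgeR adjusted p = 4.11e-05). Srm averaged 137 ± 6.91 CPM with cytochalasin D and 160.3 ± 11.4 CPM in control (log2 fold change -0.23, SE 0.05, edgeR adjusted p = 0.00215), and its groups did not overlap.

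Amd1 had 126.6, 135.7, 138.6 and 160.7 CPM with cytochalasin D, against 181.4, 163.0, 170.8 and 186.2 CPM in control. The highest cytochalasin D library fell just short of the lowest control library. The log2 change came to -0.32 (SE 0.07, edgeR adjusted p = 0.0013). Oaz2 averaged 132 ± 3.09 CPM with cytochalasin D and 118.6 ± 3.53 CPM in control (log2 fold change 0.15, SE 0.05, edgeR adjusted p = 0.0143). The Oaz2 call was lost without cytochalasin D replicate 1 (edgeR adjusted p = 0.054) and without the 3 libraries that stood apart (edgeR adjusted p = 0.104). Odc1 averaged 147.9 ± 4.6 CPM with cytochalasin D and 153.1 ± 3.23 CPM in control (log2 fold change -0.05, SE 0.04, edgeR adjusted p = 0.461). Azin1 averaged 270 ± 24.4 CPM with cytochalasin D and 266.8 ± 17.8 CPM in control (log2 fold change 0.02, SE 0.06, edgeR adjusted p = 0.871).

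When cytochalasin D was present in both groups, Odc1 was the gene called with apoptotic cells. It was 1.12-fold higher with apoptotic cells and cytochalasin D than with cytochalasin D, the single call among 7, where 8.61% of all genes were called, 4.82% higher and 3.79% lower. Odc1 had 172.6, 151.9, 164.7 and 174.6 CPM with both agents, against 145.1, 154.0, 148.8 and 143.7 CPM with cytochalasin D. The second library of each group overlapped the other group, and the log2 change came to 0.17 (SE 0.04, edgeR adjusted p = 0.017). The call was lost without replicate 4 of apoptotic cells with cytochalasin D (edgeR adjusted p = 0.0606), in a fit on the 8 compared libraries (edgeR adjusted p = 0.0532) and without the 3 libraries that stood apart (edgeR adjusted p = 0.143).

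Amd1 had 112.6, 116.9, 123.2 and 131.0 CPM with apoptotic cells and cytochalasin D, against 126.6, 135.7, 138.6 and 160.7 CPM with cytochalasin D. The groups overlapped, and the log2 fold change of -0.22 (SE 0.07) missed the threshold (edgeR adjusted p = 0.0594). Under 8 other settings that left out no single library it lay between -0.30 and -0.21, with edgeR or DESeq2 adjusted p up to 0.0879. With single libraries left out it lay between -0.26 and -0.15, with edgeR adjusted p up to 0.166. Several of these settings put it past the threshold. Among them were no filter on low counts (edgeR adjusted p = 0.0166), DESeq2 (adjusted p = 0.0454), the length trend removed (edgeR adjusted p = 0.0433), the 3 libraries that stood apart removed (edgeR adjusted p = 0.0157), and removal of cytochalasin D replicate 1 (edgeR adjusted p = 0.0316) or of replicate 3 of apoptotic cells (edgeR adjusted p = 0.0383). The log2 fold changes of the other 5 genes were 0.03 for Azin1, 0.06 for Oaz2, 0.08 for Srm, 0.08 for Sms and 0.17 for Sat1, with edgeR adjusted p of 0.141 or more.

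The effects of apoptotic cells in the absence and in the presence of cytochalasin D were then tested against each other. Of the 7 genes, 1 was called, Amd1, where 4.56% of all genes were, 1.53% with a positive and 3.03% with a negative difference. Its log2 change with apoptotic cells without cytochalasin D was lower by 0.65 than its change in the presence of cytochalasin D (difference -0.65, SE 0.10, edgeR adjusted p = 0.000566). The difference lay between -0.65 and -0.53 under the 7 other settings that left out no single library, with edgeR or DESeq2 adjusted p no higher than 0.0074. For Azin1 the difference was -0.26 (SE 0.09, edgeR adjusted p = 0.0768). Under the same 7 settings it lay between -0.27 and -0.19, with edgeR or DESeq2 adjusted p from 0.0232 to 0.368. With single libraries left out it lay between -0.33 and -0.22, with edgeR adjusted p from 0.00896 to 0.18. Settings under which it passed the threshold included no filter (edgeR adjusted p = 0.0232), DESeq2 (adjusted p = 0.0406), and fits without control replicate 2 (edgeR adjusted p = 0.0355), cytochalasin D replicate 4 (edgeR adjusted p = 0.00896) or replicate 1 of apoptotic cells with cytochalasin D (edgeR adjusted p = 0.0396). The difference for Odc1 was 0.12 (SE 0.06, edgeR adjusted p = 0.281), and for Oaz2, Srm, Sms and Sat1 it lay within 0.05 of 0. The number of all genes called for this difference, 598, was 251 without replicate 3 of apoptotic cells and 1645 without cytochalasin D replicate 4.

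Among phagocytes that all met apoptotic cells, cytochalasin D went with a change in all 7 genes. Amd1, Azin1, Oaz2 and Sat1 were higher with apoptotic cells and cytochalasin D than with apoptotic cells, and Odc1, Srm and Sms were lower. Of all genes tested, 32.5% were called in this comparison, 16.4% higher and 16.1% lower. The groups did not overlap for 7 of the 7 genes, where 32.1% of all genes had groups that did not overlap.

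Sat1 had 52.2, 48.5, 56.3 and 54.2 CPM with apoptotic cells and cytochalasin D, against 40.0, 41.0, 37.3 and 39.6 CPM with apoptotic cells. It was the most changed of the 7 genes, 1.34-fold higher (log2 fold change 0.42, SE 0.07, edgeR adjusted p = 4.75e-05). Amd1 was 1.25-fold higher, at 120.9 ± 8 CPM with both agents and 96.37 ± 9.1 CPM with apoptotic cells (log2 fold change 0.33, SE 0.07, edgeR adjusted p = 0.00116). Azin1 had 255.7, 270.8, 276.7 and 302.1 CPM with both agents, against 222.9, 238.8, 214.9 and 233.3 CPM with apoptotic cells. Its libraries with both agents were all higher, with a log2 fold change of 0.28 (SE 0.06, edgeR adjusted p = 0.000979).

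Srm was 1.17-fold lower, at 144.6 ± 5.76 CPM with both agents and 169.6 ± 8.17 CPM with apoptotic cells (log2 fold change -0.23, SE 0.05, edgeR adjusted p = 0.00155). Sms was 1.15-fold lower, at 103.8 ± 3.1 CPM with both agents and 119.5 ± 2.58 CPM with apoptotic cells (log2 fold change -0.20, SE 0.04, edgeR adjusted p = 0.000367). Both synthases therefore stood lower with cytochalasin D whether apoptotic cells were present or not. Odc1 was 1.12-fold lower, at 166 ± 10.3 CPM with both agents and 186.5 ± 5.15 CPM with apoptotic cells (log2 fold change -0.17, SE 0.04, edgeR adjusted p = 0.00507). Oaz2 was 1.11-fold higher (log2 fold change 0.15, SE 0.05, edgeR adjusted p = 0.0138), a call lost without replicate 1 (edgeR adjusted p = 0.0508) or 2 (edgeR adjusted p = 0.0607) of apoptotic cells or replicate 2 of apoptotic cells with cytochalasin D (edgeR adjusted p = 0.0564).

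**Figure D2:**
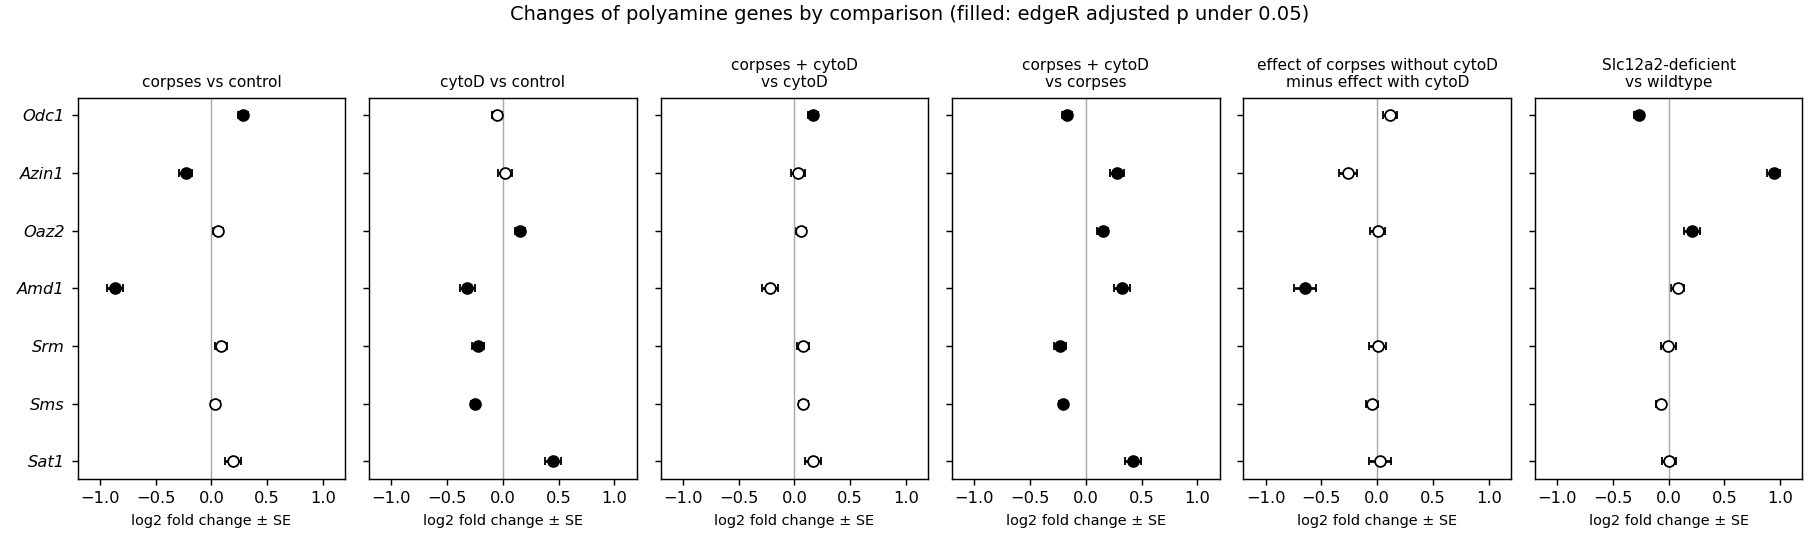
Log2 fold change ± SE of the 7 genes in the 6 comparisons, with filled points where the edgeR adjusted p was under 0.05; corpses are apoptotic cells and cytoD is cytochalasin D. Amd1 is at -0.86 with apoptotic cells, and Azin1 is at 0.94 in Slc12a2-deficient phagocytes, the points farthest from 0.

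In sorted engulfing phagocytes, loss of Slc12a2 went with a higher level of Azin1 and a lower level of Odc1. Azin1 was 1.92-fold higher and Odc1 1.21-fold lower in Slc12a2-deficient than in wildtype phagocytes, and Oaz2 was 1.15-fold higher. Amd1, Srm, Sms and Sat1 did not pass the test. The 3 calls among 7 genes, 2 higher and 1 lower, compare with 42.5% of the 13050 genes tested in this experiment, 21.1% higher and 21.3% lower, so the share called was near that of all genes. The median absolute log2 change of the 7 genes, 0.08, was below that of all genes, 0.17.

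Azin1 had 467.7, 438.4, 452.5 and 379.2 CPM in Slc12a2-deficient libraries, against 229.8, 235.2, 220.7 and 218.5 CPM in wildtype libraries. The lowest deficient library was far above the highest wildtype library. The mean was 434.4 ± 38.7 CPM in deficient and 226 ± 7.82 CPM in wildtype libraries (SD, n = 4 each), with a log2 fold change of 0.94 (SE 0.06, edgeR adjusted p = 4.25e-09). This change exceeded in size that of 93.9% of the genes tested. Odc1 had 125.7, 135.5, 130.5 and 127.6 CPM in deficient libraries, against 151.7, 152.0, 159.9 and 162.6 CPM in wildtype libraries. All deficient libraries were lower, with a log2 fold change of -0.27 (SE 0.04, edgeR adjusted p = 0.000153).

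Oaz2 had 84.8, 87.3, 78.9 and 66.2 CPM in deficient libraries, against 73.4, 68.6, 64.3 and 68.7 CPM in wildtype libraries. Replicate 4 of the deficient group lay within the wildtype range. The log2 change came to 0.21 (SE 0.07, edgeR adjusted p = 0.0324), and the call was lost on leaving out any of 5 of the 8 libraries. These were wildtype replicates 2, 3 and 4 (edgeR adjusted p = 0.0559, 0.101 and 0.0637) and deficient replicates 1 and 2 (edgeR adjusted p = 0.0994 and 0.081). Amd1 averaged 183.2 ± 15.5 CPM in deficient and 173.2 ± 8.68 CPM in wildtype libraries (log2 fold change 0.08, SE 0.06, edgeR adjusted p = 0.288). Sms averaged 138.1 ± 1.93 CPM in deficient and 145.1 ± 5 CPM in wildtype libraries (log2 fold change -0.07, SE 0.04, edgeR adjusted p = 0.192). Srm averaged 143.2 ± 13.8 CPM in deficient and 143.4 ± 10.7 CPM in wildtype libraries, and Sat1 averaged 28.85 ± 1.56 CPM in deficient and 28.76 ± 1.31 CPM in wildtype libraries (edgeR adjusted p = 0.982 and 0.961). The SE of their log2 fold changes was 0.07 for Srm and 0.06 for Sat1.

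**Figure D3:**
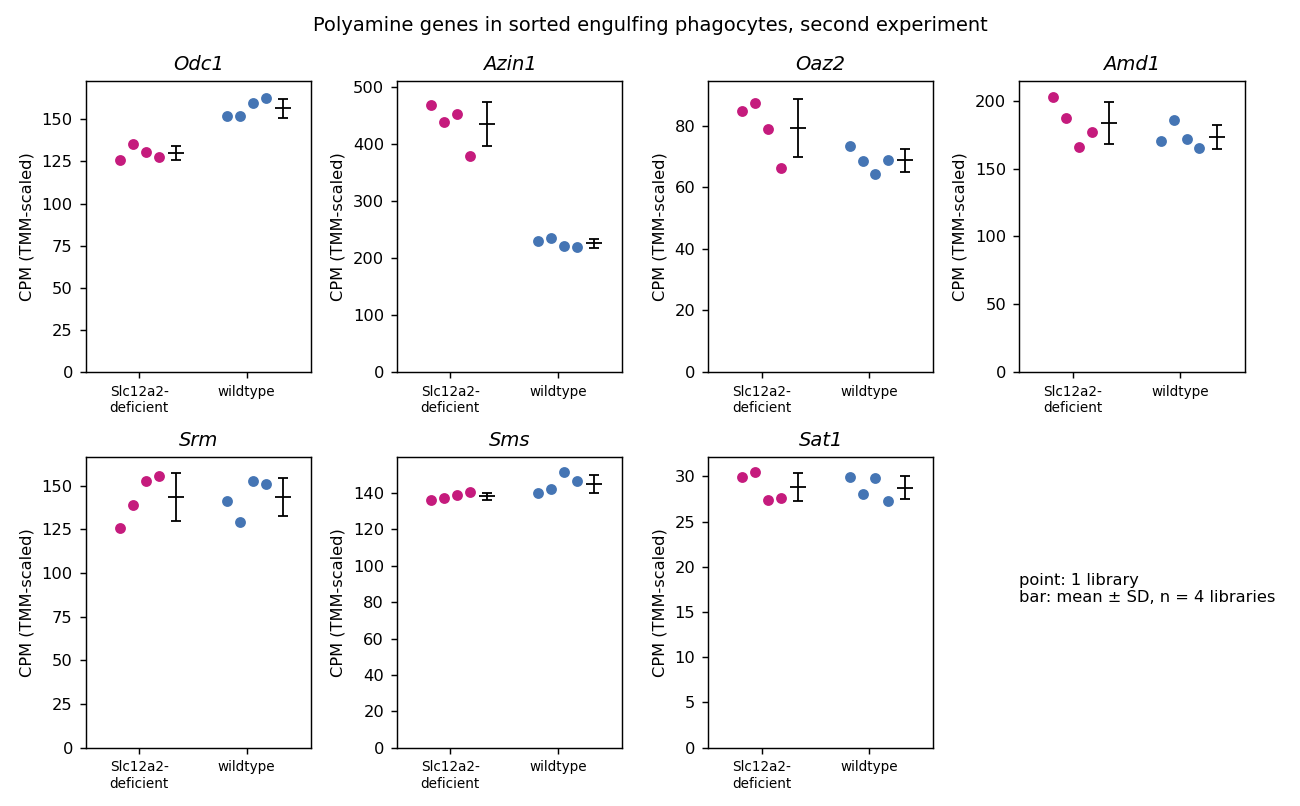
TMM-scaled CPM of the 7 genes in each library of sorted Slc12a2-deficient and wildtype phagocytes, with the mean ± SD of 4 libraries at the right of each group. Azin1 lies at 379.2 to 467.7 CPM in deficient and 218.5 to 235.2 CPM in wildtype libraries, and Odc1 at 125.7 to 135.5 CPM in deficient and 151.7 to 162.6 CPM in wildtype libraries.

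T cell markers summed to 23.2 to 28.0 CPM in deficient and 29.6 to 32.2 CPM in wildtype libraries, and Zap70 was listed at 0 in all 8. Lat averaged 4.66 CPM in deficient and 10.8 CPM in wildtype libraries, and Cd28 1.36 and 3.92 CPM. Tcf7 went the other way, at 18.5 CPM in deficient and 16.1 CPM in wildtype libraries. These 3 genes were also counted in control phagocytes of the first experiment. Lck averaged 0.0495 CPM in deficient and 0.0585 CPM in wildtype libraries.

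Levels were compared between genes per kilobase of counted exon. Srm led in all 6 groups, at 128.8 ± 5.13 CPM per kb with apoptotic cells and cytochalasin D, 151.1 ± 7.29 with apoptotic cells, 122 ± 6.18 with cytochalasin D and 142.8 ± 10.1 in control, and at 127.6 ± 12.3 in deficient and 127.7 ± 9.52 in wildtype phagocytes. In control, Sms, Odc1, Azin1, Sat1 and Oaz2 followed within 69.15 and 65.32 CPM per kb, where neighbours in the order differed by less than their SD, and Amd1 came last at 59.97 ± 3.58 CPM per kb. With apoptotic cells the order after Srm was Odc1 (83.81 ± 2.31 CPM per kb), Sat1 (76.48 ± 3), Sms (70.88 ± 1.52), Oaz2 (68.02 ± 3.93), Azin1 (58.56 ± 2.74) and Amd1 (32.96 ± 3.11). Amd1 was thus the gene of lowest level per kb in both, and it was also last with cytochalasin D (48.02 ± 4.95 CPM per kb) and with both agents (41.36 ± 2.74 CPM per kb). Sat1 stood after Srm in the groups given cytochalasin D, at 102.3 ± 6.45 CPM per kb with apoptotic cells and cytochalasin D and 91.18 ± 7.41 CPM per kb with cytochalasin D.

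In Slc12a2-deficient phagocytes, Azin1 was next after Srm at 111.9 ± 9.97 CPM per kb, with Oaz2 last at 43.7 ± 5.19 CPM per kb. In wildtype phagocytes, Sms was next after Srm at 86.06 ± 2.96 CPM per kb, Azin1 stood at 58.2 ± 2.02 CPM per kb, and Oaz2 was again last at 37.88 ± 2.04 CPM per kb.

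Ratios within a library show these shifts without the scaling between libraries, and are given as descriptions. The Amd1 to Odc1 ratio of levels per kb was 0.556 ± 0.0399 with apoptotic cells and cytochalasin D, 0.394 ± 0.0467 with apoptotic cells, 0.724 ± 0.0873 with cytochalasin D and 0.872 ± 0.0572 in control (SD, n = 4 each). Between apoptotic cells, at 0.337 to 0.44, and control, at 0.816 to 0.925, its values did not overlap. The Sat1 to Sms ratio was 1.66 ± 0.14 with apoptotic cells and cytochalasin D, 1.08 ± 0.0206 with apoptotic cells, 1.57 ± 0.116 with cytochalasin D and 0.966 ± 0.0738 in control, so the groups with cytochalasin D lay above those without it. The Azin1 to Odc1 ratio was 1.92 ± 0.185 in Slc12a2-deficient and 0.829 ± 0.0568 in wildtype phagocytes, with the lowest deficient library at 1.7 and the highest wildtype library at 0.886. The genotype groups did not overlap for Amd1 to Odc1 either, at 0.968 to 1.23 in deficient and 0.773 to 0.928 in wildtype phagocytes. They overlapped for Sat1 to Sms, at 0.643 to 0.725 in deficient and 0.608 to 0.697 in wildtype phagocytes.

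**Figure D4:**
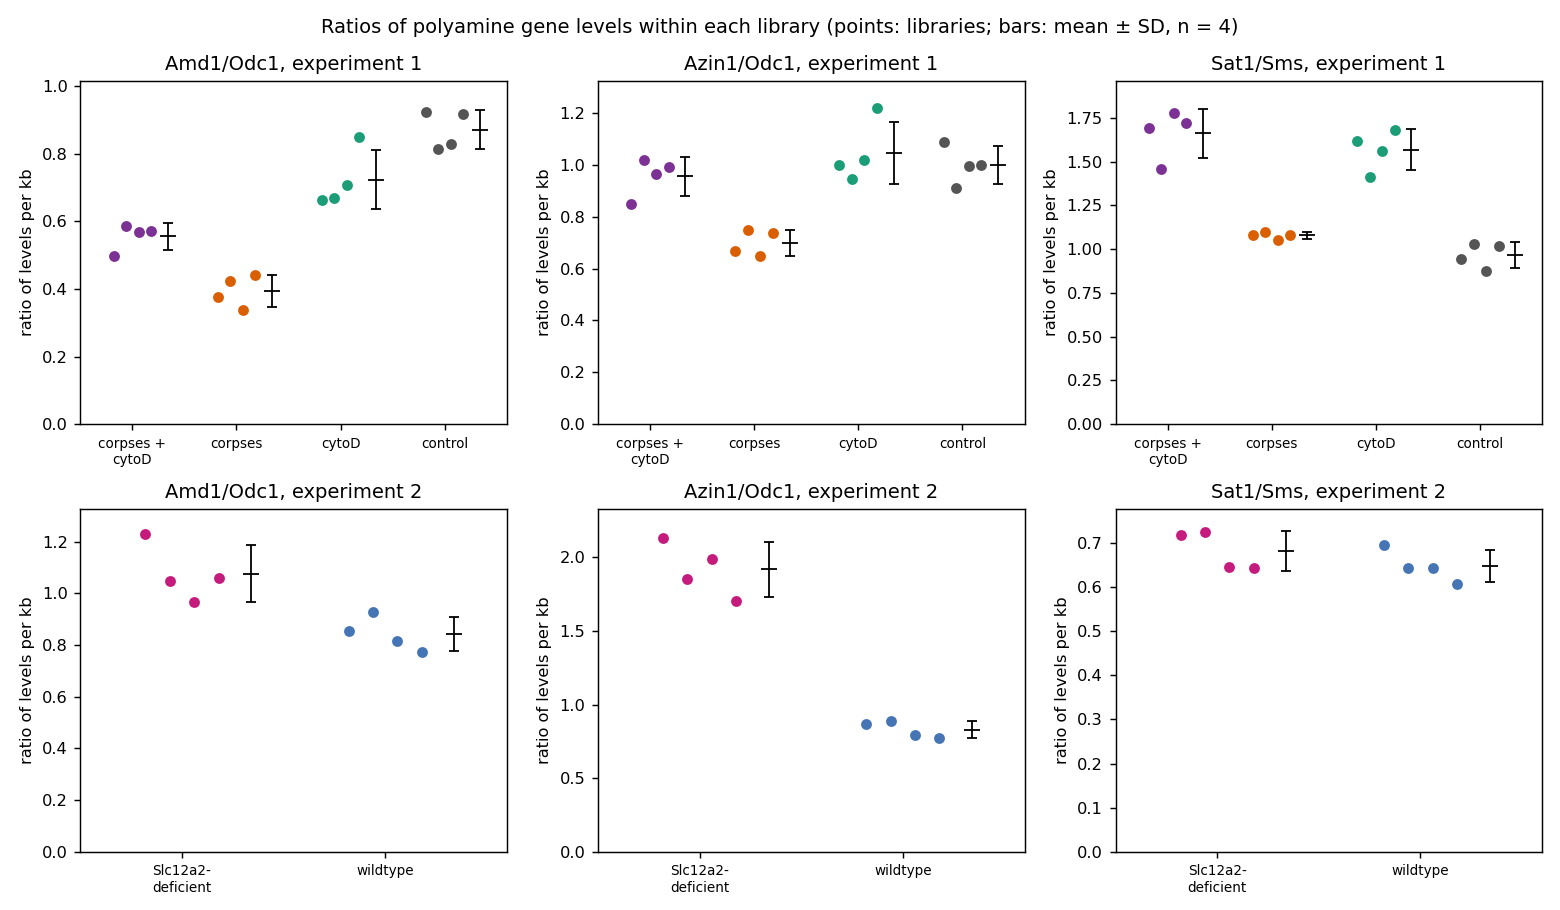
Ratios of levels per kb of 3 gene pairs within each library, in the first experiment (upper row) and the second (lower row), with the mean ± SD of 4 libraries; corpses are apoptotic cells and cytoD is cytochalasin D. The Amd1 to Odc1 ratio is lowest with apoptotic cells (0.394 ± 0.0467), and the Azin1 to Odc1 ratio is 1.92 ± 0.185 in Slc12a2-deficient and 0.829 ± 0.0568 in wildtype phagocytes.

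Other genes of the pathway were taken from 5 lists of 43 genes, of which 25 were tested in each experiment. The 6 other listed genes of synthesis and antizyme function (Azin2, Oaz3, Arg1, Arg2, Agmat and Amd2) include the arginases that supply ornithine. Of these, 5 had a count row, and none of the 5 passed the filter on low counts. With apoptotic cells, 2 of the 25 were higher and 4 lower, where 13.7% of all genes were called. With cytochalasin D, 2 were higher and 6 lower, where 26.3% of all genes were called, and between genotypes 9 were higher and 7 lower in deficient phagocytes, where 42.5% were. Their median absolute log2 change was 0.098 with apoptotic cells, where that of all genes was 0.12, and 0.045 with cytochalasin D, where that of all genes was 0.15. Between genotypes it was 0.20, where that of all genes was 0.17.

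Of the 7 tested transport genes, 1 was higher and 2 lower with apoptotic cells (13.7% of all genes called), and 3 were higher and 3 lower in deficient phagocytes (42.5% of all genes called). Atp13a3, a P-type ATPase that takes up polyamines, averaged 429.5 ± 41.2 CPM with apoptotic cells and cytochalasin D, 216.7 ± 16 CPM with apoptotic cells, 324.4 ± 32.2 CPM with cytochalasin D and 269.7 ± 13.4 CPM in control. It was 1.25-fold lower with apoptotic cells than in control (edgeR adjusted p = 0.00365), yet 1.32-fold higher with apoptotic cells and cytochalasin D than with cytochalasin D (edgeR adjusted p = 0.000433). The difference between these effects was -0.72 on the log2 scale (SE 0.10, edgeR adjusted p = 0.000117). In Slc12a2-deficient phagocytes Atp13a3 was 1.48-fold lower, at 545.6 ± 46.9 CPM against 807.7 ± 31.2 CPM in wildtype phagocytes (edgeR adjusted p = 1.12e-06).

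Slc7a1, a transporter of arginine and other cationic amino acids, was 1.45-fold lower with apoptotic cells than in control, at 37.94 ± 2.13 CPM against 55.37 ± 3.61 CPM in control (log2 fold change -0.54, edgeR adjusted p = 0.000128). With cytochalasin D, 1 of the 7 tested transport genes was higher and 1 lower than in control, where 26.3% of all genes were called. Atp13a3 was 1.2-fold higher (edgeR adjusted p = 0.00512). Caveolin 1 (Cav1), the coat protein of caveolae, was 1.53-fold lower with cytochalasin D, at 478.3 ± 23.6 CPM against 732.9 ± 40.4 CPM in control (edgeR adjusted p = 3.67e-10). In deficient phagocytes Cav1 was 1.26-fold higher (edgeR adjusted p = 0.000223) and Gpc1, a heparan sulfate proteoglycan that binds polyamines, was 1.19-fold lower (edgeR adjusted p = 0.000115).

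Hypusine is the modified lysine of translation factor eIF5A, made with spermidine. Of its 4 listed genes, 1 was higher and 1 lower with apoptotic cells, where 13.7% of all genes were called. Eif5a2 was 1.31-fold lower with apoptotic cells (77.09 ± 5.57 against 100.8 ± 8.15 CPM in control, edgeR adjusted p = 0.000685) and 1.28-fold lower with cytochalasin D (edgeR adjusted p = 0.00051). Its effects of apoptotic cells in the absence and presence of cytochalasin D differed by -0.58 on the log2 scale (SE 0.10, edgeR adjusted p = 0.00163). Dohh, the hydroxylase that completes hypusine, was 1.64-fold higher with apoptotic cells, at 157.7 ± 13.7 CPM against 96.19 ± 14.3 CPM in control (edgeR adjusted p = 0.00375). In deficient phagocytes 2 of the 4 were higher and 1 lower, where 42.5% of all genes were called. Eif5a2 (1.2-fold, edgeR adjusted p = 0.00139) and Dhps (1.15-fold, edgeR adjusted p = 0.00949) were higher, and Dohh was 1.18-fold lower (edgeR adjusted p = 0.00093). Eif5a itself, the abundant form, was not called in any of the 6 comparisons.

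The methionine cycle makes the S-adenosylmethionine that Amd1 uses, and the salvage pathway recovers the methylthioadenosine that both synthases release. With cytochalasin D, 4 of the 12 tested genes of this list were lower and none was higher, where 12.8% of all genes were lower. They were Mat2a, the S-adenosylmethionine synthetase subunit (1.40-fold lower, edgeR adjusted p = 1.74e-06), and the salvage genes Mtap (1.23-fold, edgeR adjusted p = 5.25e-06), Enoph1 (1.19-fold, edgeR adjusted p = 0.00534) and Adi1 (1.28-fold, edgeR adjusted p = 0.00974). In Slc12a2-deficient phagocytes 4 of the 12 were higher and 1 lower, where 42.5% of all genes were called. Mat2a was 1.52-fold higher, at 246.1 ± 3.78 CPM against 161.4 ± 6.23 CPM in wildtype phagocytes (edgeR adjusted p = 1.49e-08). Ahcy, which splits S-adenosylhomocysteine, was 1.45-fold higher (edgeR adjusted p = 3.95e-07), and Mtrr was 1.29-fold lower (edgeR adjusted p = 0.000127). The effects of apoptotic cells on Mat2a in the absence and presence of cytochalasin D differed by -0.37 on the log2 scale (SE 0.09, edgeR adjusted p = 0.0178), a call lost without cytochalasin D replicate 2 (edgeR adjusted p = 0.0506), replicate 3 of apoptotic cells (edgeR adjusted p = 0.0504), replicate 3 of apoptotic cells with cytochalasin D (edgeR adjusted p = 0.0513), or the 3 libraries that stood apart (edgeR adjusted p = 0.112).

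Both tested genes of polyamine oxidation were lower in deficient phagocytes, where 21.3% of all genes were lower. Smox, the spermine oxidase, averaged 7.903 ± 0.884 CPM in deficient and 14.39 ± 1.84 CPM in wildtype phagocytes, 1.82-fold lower (edgeR adjusted p = 7.6e-06). Paox, the oxidase of acetylated polyamines, averaged 31.21 ± 2.43 CPM in deficient and 44.79 ± 0.946 CPM in wildtype phagocytes, 1.43-fold lower (edgeR adjusted p = 3.81e-06). With cytochalasin D, Smox was 1.26-fold higher than in control (edgeR adjusted p = 0.00255).

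**Figure D5:**
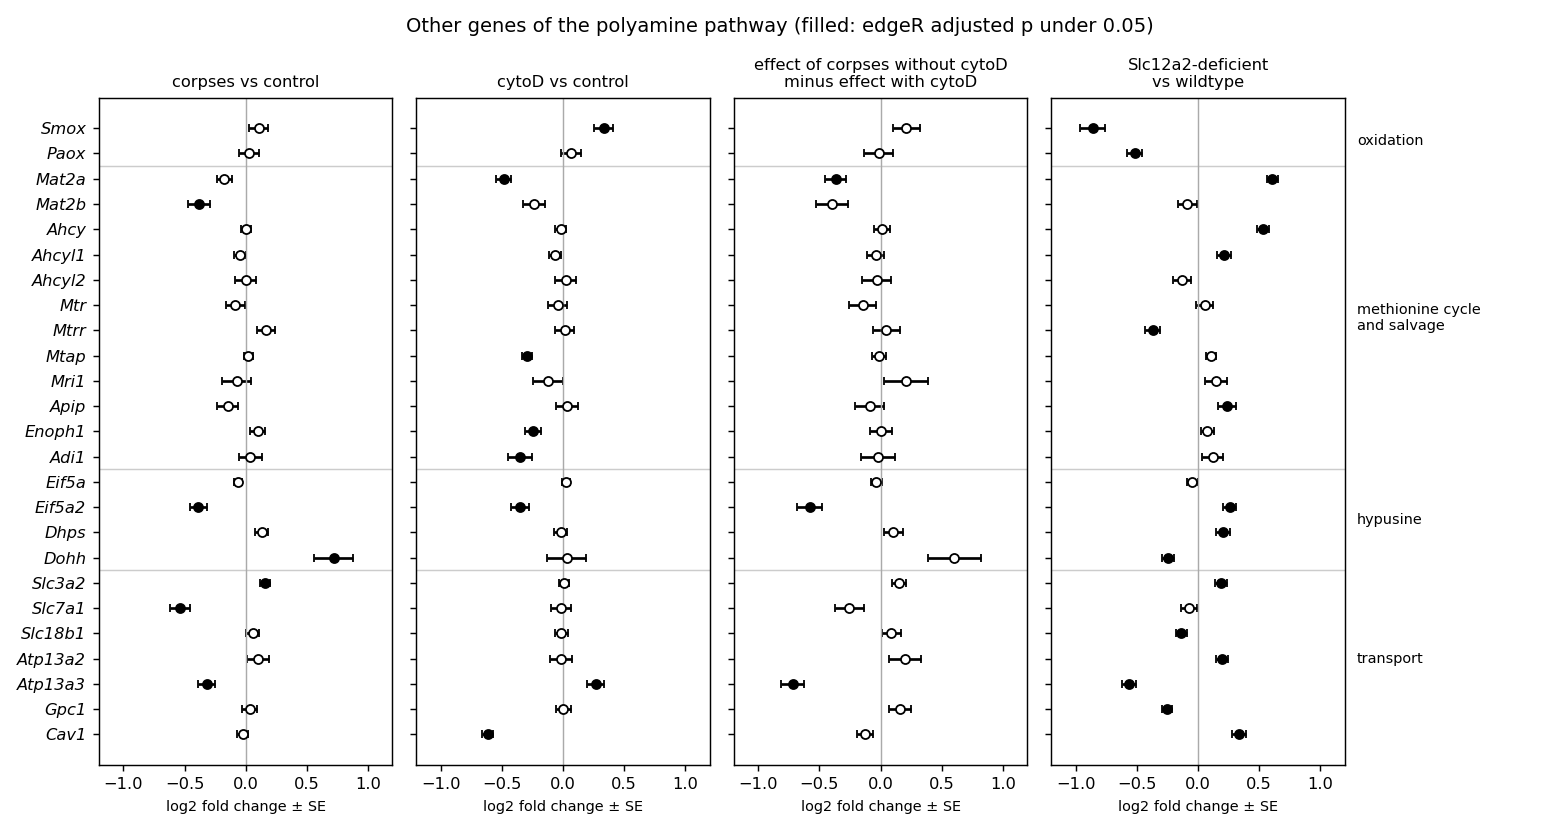
Log2 fold change ± SE of the 25 other tested pathway genes in 4 comparisons, grouped by role, with filled points where the edgeR adjusted p was under 0.05; corpses are apoptotic cells and cytoD is cytochalasin D. Atp13a3 has the most negative difference between the effects of apoptotic cells without and with cytochalasin D (-0.72), and Smox the most negative change in Slc12a2-deficient phagocytes (-0.86).

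Myc and its partners, of which Myc is a known activator of Odc1 in mammals, were measured as a list of 11 genes, 9 of them tested. With apoptotic cells 1 was higher and 2 lower, where 13.7% of all genes were called, and in deficient phagocytes 2 were higher and 4 lower, where 42.5% of all genes were called. Myc itself was 1.15-fold lower in deficient phagocytes, at 210.9 ± 20.7 CPM against 243.2 ± 4.69 CPM in wildtype phagocytes (edgeR adjusted p = 0.011), and Mga, a repressor that pairs with Max, was 1.71-fold lower (edgeR adjusted p = 3.26e-05). Myc was not called in the first experiment.

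For each polyamine gene, the 3 genes with the most similar profile over the 16 libraries of the first experiment were found by the root mean square difference of centred log2 CPM among 8915 candidates. Amd1 was closest to Nox4 (0.155), Nr3c1 (0.173) and Bbs10 (0.177), where the median candidate differed by 0.36. Odc1 was closest to Lrrc59, Ezr and Ccnf (0.0545 to 0.0626, median 0.2), and Azin1 to Mob1a, Hipk3 and Tmem55a (0.0502 to 0.053, median 0.195). Oaz2 was closest to Racgap1, Trim45 and Otub1, Srm to Polr2e, Adprh and Ehd1, Sms to Ppa1, Ezh2 and Fnbp4, and Sat1 to Ssfa2, Pde4b and Chst11. These genes were picked for their likeness, so the values are descriptions.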

How the data were processed

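The deposited values are raw fragment counts for each gene name. The authors counted fragments with both ends aligned over exons with featureCounts 1.5.0, without a strand or multi-mapper option, per the file headers. The submitters' processing notes also name FastQC, STAR and DESeq2, without versions, and the genome build is not given in the sources used here. A row with a blank name (0.0249 to 0.0445% of counts in the first experiment, 1.13 to 1.65% in the second) was left out. Libraries were made from total RNA and read as 75 bp pairs, per the labels.

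The experiments were fitted apart with edgeR 4.0.16 (R 4.3.3), with all groups of an experiment in the fit and group as the only term. Genes passed filterByExpr at a count of 10 and a total of 15, libraries were scaled with TMM, and contrasts were tested by quasi-likelihood F tests. SE is the absolute log2 fold change over the square root of F. Biological coefficients of variation were 7.04% and 6.06%. The alternatives were other scaling (relative log expression), no filter, at least 1 CPM in 4 libraries, a replicate block, a fit on the 8 compared libraries, DESeq2 1.42.0 and leaving out each library. Removal of 3 libraries and of the gene length trend were chosen after seeing the data. Levels per kb use the exon length in the deposited tables. The genes and lists were chosen with earlier results of these data known. Named are the 7 measured polyamine genes, Slc12a2, list genes called in a comparison (a subset picked after their values were seen), and the 3 genes most like each polyamine gene. No sequence is shown.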

Additional observations from a re-analysis of the deposited data

Results flagged for a closer look

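The effect of apoptotic cells differed with and without cytochalasin D for 4 genes described above, by the test of the difference itself. Differences are given as the log2 effect without cytochalasin D minus the log2 effect with it. Called were 1 of the 7 polyamine genes, 3 of the 25 other tested pathway genes and 0 of the 9 tested genes of the Myc list. Of all genes, 4.56% were called. The difference was -0.646 for Amd1, -0.719 for Atp13a3, -0.581 for Eif5a2 and -0.368 for Mat2a. For Atp13a3 the effects had opposite signs, with log2 fold changes of -0.32 without and 0.40 with cytochalasin D, both called. Signs were also opposite for Eif5a2 (-0.39 without and 0.19 with cytochalasin D) and Mat2a (-0.17 and 0.19). Of these, only the Eif5a2 change without cytochalasin D was called. Amd1 was lower in both (-0.86 and -0.22).

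Dixon's ratio flagged no library in the levels of the 7 genes and Slc12a2 or in the ratios, over 72 groups of 4 values. Its 95% critical value is 0.829, which chance passes in about 1 of 20 groups. The Amd1 to Odc1 ratio with apoptotic cells and cytochalasin D came to 0.809, at replicate 1. With 4 values only a very distant library is flagged, so the lack of flags does not show that none stood apart.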

How the results depend on the processing

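No called value of the 7 genes changed sign under any alternative run. Calls were lost in 3 of 153 tests that left out no single library, and in 12 of 296 that left out 1, all for Azin1, Odc1 or Oaz2 as given above. The counts moved as follows, and the cause was not tested. For apoptotic cells with cytochalasin D against cytochalasin D, 1 of the 7 genes was called, but 2 with no filter, the replicate block, DESeq2 or the length trend removed, and 0 on the 8 compared libraries. Of all genes, 662 were called there without the 3 libraries that stood apart, where 1129 were called with them. For the difference between effects, 1 of the 7 was called, but 2 with no filter, the replicate block or DESeq2. Over all genes that difference gave 598 calls, 928 with no filter, 975 with DESeq2 and 120 without the 3 libraries.

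Leaving out single libraries, all genes called with apoptotic cells ranged over 1103 to 2087, and for the difference over 251 to 1645. For the 7 genes the ranges were 0 to 2 for apoptotic cells with cytochalasin D against cytochalasin D, and 1 to 2 for the difference.

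Signs reversed in values near 0 that were not called. For the difference, Oaz2 came to -0.00335 and Srm to -0.00245 with relative log expression, Oaz2 to -0.00114 with no filter, Oaz2 to -0.00256 and Srm to -0.00239 with DESeq2, Oaz2 to -0.0499 without the 3 libraries, and Oaz2, Srm and Sat1 to -0.0203, -0.0496 and -0.0859 with the length trend removed. Azin1 came to -0.0408 for apoptotic cells with cytochalasin D against cytochalasin D without the 3 libraries. Between genotypes, Srm came to 0.00404 with no filter, and Sat1 to -0.000997 with the 1 CPM filter and -0.0385 with the length trend removed. Leaving out single libraries, Azin1 ranged over -0.0526 to 0.0494 with cytochalasin D and -0.0101 to 0.0972 for apoptotic cells with cytochalasin D against cytochalasin D. For the difference, Oaz2 ranged over -0.0247 to 0.0282, Srm over -0.0359 to 0.0439 and Sat1 over -0.0227 to 0.0682, and between genotypes Srm over -0.0404 to 0.057 and Sat1 over -0.0222 to 0.0384.

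Whether replicate numbers paired the libraries was examined in the first experiment only, and the correlations do not settle it. Deviations of same-numbered libraries correlated at -0.0555 to 0.227 over 24 pairs of libraries (median 0.00478, 3 pairs over 0.1), and 7 of 16 libraries correlated best with their own number. Pairs with different numbers had a median of -0.00646 and reached 0.167, so the 3 highest correlations were between same-numbered libraries. In the second experiment, a block on library number gave 3086 genes higher and 3140 lower, where 2759 and 2786 were called without it. With the replicate block, Amd1 for apoptotic cells with cytochalasin D against cytochalasin D had an edgeR adjusted p of 0.0222 and Azin1 for the difference 0.0464. With 4 libraries a group, the SE of log2 changes was 0.04 to 0.10 for these genes, which limits how small a change could be called.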
